A study of Mus musculus with 8 samples.

Results

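Wild-type (WT) mouse embryonic fibroblasts were treated with the DNA-damaging drug doxorubicin or with vehicle, and 4 of the 8 libraries of the series measure this response: doxorubicin libraries A and B and control libraries A and B. They were chosen by their labels, with every gene name of the count table kept. The cells were early-passage fibroblasts of E13.5 embryos with the normal Dino locus (DINO+/+), grown in serum, and received 0.2 µg/mL doxorubicin or vehicle for 8 h. The other 4 libraries came from fibroblasts of the same stage labelled as Dino mutants (DINO loxP/loxP), with the same 2 treatments. They served here to estimate the spread between libraries and to test whether a WT response differed in the mutant. The Dino locus makes a long noncoding RNA and lies next to Cdkn1a; its level is not analysed here. Whether the letters A and B stand for separate cultures or embryos is not stated in the labels, so p-values measure only the spread between these libraries, which may be technical.

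Doxorubicin is an anthracycline that slips between DNA bases and traps topoisomerase II on cut DNA. Broken DNA activates the kinases ATM and ATR, which stabilise the transcription factor p53. p53 binds paired copies of a short motif and raises genes that stop the cell cycle, repair DNA, start cell death and shut p53 off again. Its target p21, the product of Cdkn1a, keeps pocket proteins bound to E2F and CHR motifs in the promoters of cell cycle genes, which lowers those genes. At higher occupancy the drug also blocks transcription by RNA polymerase I in the nucleolus.

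The table listed 30419 gene names, and 12255 passed the count filter. Total counts were 27245979 and 33285171 in control libraries A and B and 27958656 and 31399132 in doxorubicin libraries A and B. Levels are CPM, the counts scaled to a common library size and composition, each change is a log2 fold change ± SE of doxorubicin against control over n = 2 libraries per group, and calls required an adjusted p below 0.05 (edgeR's quasi-likelihood test, Benjamini-Hochberg over all genes). "Rose" and "fell" are used of called genes. For each gene so described by name both treated libraries lay on the same side of both control libraries. Such separation of the groups was a condition for naming many of these genes. It held for 77.7% of all tested genes and for 7022 of the 7037 called, so it does not set the named genes apart. Pairs of values joined by "to" or "then" are control libraries A and B followed by doxorubicin libraries A and B. CPM compares a gene between libraries, not one gene with another. In bulk RNA, fewer cells of a type and less RNA per cell cannot be told apart. The 15 fibroblast markers were all detected and summed to 7475 and 7811 CPM in controls and 6858 and 6534 CPM with doxorubicin. Erythroid markers summed to at most 0.469 CPM in any WT library, and the 1 tested was called higher (6.44). Cartilage and bone markers summed to 222.4 and 213.2 then 181.1 and 201.5 CPM, with 1 of 4 tested called higher and 1 lower. Neural markers summed to 43.99 and 44.4 then 49.4 and 45.7 CPM, with 3 of 6 tested called higher and 3 lower. The 8 endothelial markers went from 2.19 and 3.32 to 11.6 and 6.98 CPM, with 3 tested and 1, Tek, called higher (2.91 ± 0.26), and Tie1 and Cldn5 at 0 counts. Macrophage and leukocyte markers summed to between 24.8 and 38.4 CPM.

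The response was broad. 57.4% of the tested genes were called, 29.3% higher and 28.1% lower, against which every count below is read. The median log2 fold change over all genes was 0.0068, but the scaling itself holds this value near 0. With upper-quartile scaling 3318 genes rose and 3764 fell. A change in total RNA shared by all genes would not show in CPM. Large changes were mostly rises: 678 genes rose and 110 fell at least 4-fold, and 190 rose and 1 fell at least 16-fold. Ppp2r2c, of the phosphatase 2A family, had 1 and 3 counts in control libraries A and B and 1293 and 1318 counts in doxorubicin libraries A and B. It was near silent in both controls and high in both treated libraries. In all, 12 genes had at most 3 counts in each control library and at least 100 in each treated one, and no gene went the other way. Among the other 11 were the transcription factor genes Grhl3 (1 and 0 counts, then 140 and 107), Tfap2c (3 and 2, then 167 and 125) and Zfp750 (2 and 2, then 148 and 142), known for their roles in surface epithelium. Over the 9 epithelial markers the summed level went from 2.04 and 2.26 to 5.796 and 5.54 CPM. Of these markers, 2 were tested and 1, Krt19, rose (1.64 ± 0.19), and Krt5, Krt8 and Krt14 had at most 3 counts in any WT library. The part of such cells in these rises was not tested. The channel genes Cnga3 (1 and 0 counts, then 183 and 141) and Kcnj4 (0 and 1, then 125 and 159) and the RNA-binding gene Celf5 (2 and 3, then 207 and 208) were also in this set. The remaining 5 were Fzd10, Mgam, 1700007K13Rik, Mab21l3 and Pm20d1.

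Where the mean was 20 CPM or more, Mreg, which acts in the transport of melanosomes and lysosomes, went from 14.2 and 15.2 CPM in control libraries A and B to 755 and 723 CPM in doxorubicin libraries A and B (5.65 ± 0.09). Ddit4l, an inhibitor of mTOR signalling, went from 8.69 and 8.599 to 189 and 193 CPM (4.46 ± 0.09). Both genes were far higher in both treated libraries. Prkaa2, a catalytic subunit of the energy sensor AMPK, rose by 4.28 ± 0.11 on the log2 scale. Rai2 (7.599 ± 0.19), Fam196a (6.15 ± 0.18, or 6.77 without control library A), Vnn1 (5.59 ± 0.16), Magel2 (5.42 ± 0.17) and Tmc7 (4.24 ± 0.13) were also among the 12 largest rises. The 12 largest falls included the sulfotransferase gene Chst2, at 72.4 and 69.9 CPM in controls and 12.6 and 15.5 CPM with doxorubicin (-2.34 ± 0.09). Others were Pcdh18, a protocadherin (-2.29 ± 0.07), Ing5, a reader of histone methylation (-2.22 ± 0.12), and H1f0, a linker histone (-2.15 ± 0.08). Lurap1l (-2.33 ± 0.08), Bend3 (-2.12 ± 0.11), Wrb (-2.06 ± 0.08) and Fam84b (-2.53 ± 0.08) completed that set with genes described in their groups below.

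Promoter windows of 6 tested genes that came close to the p53 consensus are shown first, since these genes moved together. Windows ran from 250 bases before to 50 bases after each RefSeq gene start (assembly GRCm38.p6), both strands were searched for the 20-base p53 consensus without a spacer, and the C and G of each core had to match. Of 32851 windows in RefSeq, 22 (0.067%) matched with at most 1 mismatch. The 6 genes shown are tested genes whose current symbol matched a window. Part of the genome and older gene names were left out of that step. Other tested genes may therefore be among the 22. The 20 matched bases are in capitals.
Cdkn1a (chr17:29090908-29090967, + strand): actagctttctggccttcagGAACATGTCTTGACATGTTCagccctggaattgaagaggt
Gtse1 (chr15:85859925-85859984, + strand): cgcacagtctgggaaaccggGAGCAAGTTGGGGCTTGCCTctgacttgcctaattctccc
Ccng1 (chr11:40755442-40755501, - strand): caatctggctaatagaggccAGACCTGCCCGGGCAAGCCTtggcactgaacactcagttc
Rps27l (chr9:66946276-66946335, + strand): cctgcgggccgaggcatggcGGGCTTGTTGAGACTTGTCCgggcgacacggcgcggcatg
Mthfd1 (chr12:76255070-76255129, + strand): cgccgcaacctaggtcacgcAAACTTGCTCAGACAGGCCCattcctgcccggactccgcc
Calhm2 (chr19:47138431-47138490, - strand): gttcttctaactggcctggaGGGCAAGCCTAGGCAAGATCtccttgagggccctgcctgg
All 6 genes rose, where 29.3% of tested genes did: Cdkn1a by 2.46 ± 0.10, Ccng1, which encodes cyclin G1, by 2.13 ± 0.07, Gtse1 by 1.68 ± 0.12, Calhm2 by 1.196 ± 0.27, Mthfd1 by 0.83 ± 0.09 and Rps27l by 0.65 ± 0.07 on the log2 scale. A match is a description of the sequence, not a measured binding site. The consensus searches at 1 and at 2 mismatches were not among the planned motifs, and the latter was added after the data were seen. At up to 2 mismatches, 18 of 2245 genes called higher with a single window held the motif (0.802%). It was in 7 of 3198 not called (0.219%), 5 of 2121 called lower (0.236%) and 0.326% of all RefSeq windows. The planned p53 motif, CATG and CATG with 6 bases between, was in 0.223%, 0.156% and 0.189% of these windows, so it differed little. It was in 0 of 410 genes that rose at least 4-fold, and in 0.712% of all RefSeq windows.

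Of the p53 feedback genes, Mdm2, Ppm1d, Ccng1 and Trp53inp1 rose more than 4-fold, and Trp53 was not called. Mdm2, the ubiquitin ligase that marks p53 for destruction, was at 139.97 and 132 CPM in control libraries A and B and at 1204 and 1112 CPM in doxorubicin libraries A and B (3.09 ± 0.07). Trp53inp1, which promotes p53 phosphorylation and autophagy, was at 198 and 165 then 2449 and 2389.7 CPM (3.74 ± 0.08). In both genes the treated libraries agreed closely and lay well above the controls. Ccng1 went from 1444 and 1352 to 6195 and 6001 CPM. Ppm1d, the phosphatase Wip1 that removes damage phosphorylation, went from 16.5 and 15.9 to 70.8 and 63.5 CPM (2.05 ± 0.09). Rchy1, a second ubiquitin ligase for p53, rose by 0.80 ± 0.10. Mdm4, the partner of Mdm2, was at 8.36 and 6.54 then 5.1004 and 6.196 CPM (-0.39 ± 0.15), a fall that was not called by DESeq2 or without control library A or doxorubicin library A. Trp53 stood at 7.803 and 8.86 then 6.66 and 7.82 CPM, with overlapping groups (-0.21 ± 0.14). Of 11 tested feedback genes 5 rose and 2 fell, with a median of 0.041 that ran from -0.012 to 0.087 over the alternatives, so its median stood near that of all genes.

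**Figure D1:**
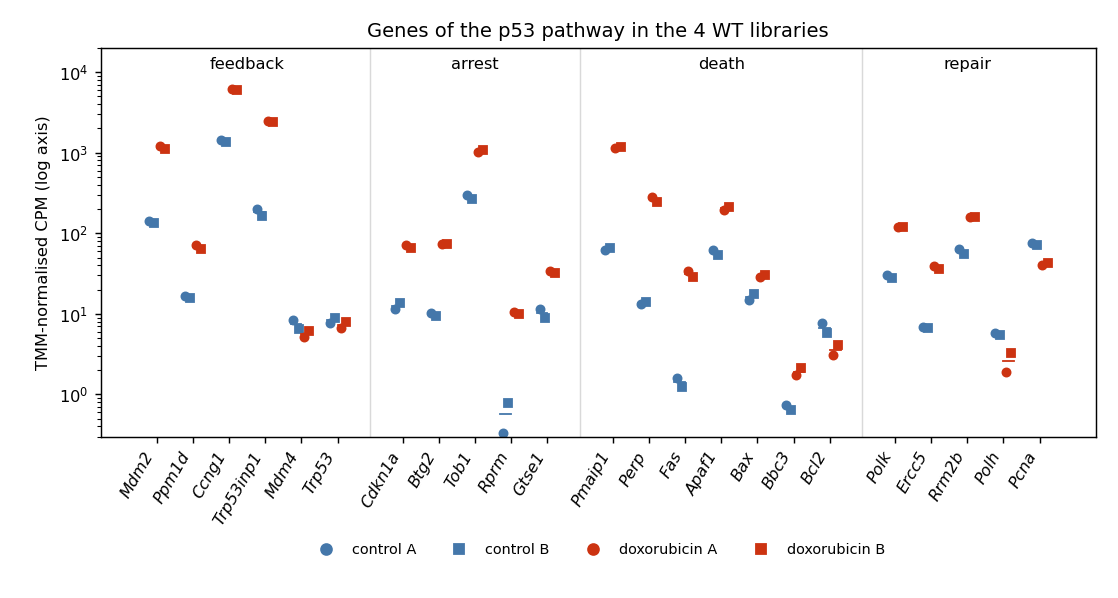
CPM on a log axis for p53 pathway genes in each WT library, grouped by role; circles are libraries A, squares libraries B, blue is control, red is doxorubicin and short lines are group means. Mdm2, Ppm1d, Ccng1 and Trp53inp1 are higher in both treated libraries, while Mdm4 (log2 fold change -0.39 ± 0.15) and Trp53 (-0.21 ± 0.14) are not.

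Every tested gene of the arrest list rose: 11 of 11 tested among 13 listed, with a median log2 fold change of 2.02. Cdkn1a went from 11.3 and 13.8 to 72.5 and 66.2 CPM. Btg2, an antiproliferative partner of the CCR4-NOT deadenylase, was at 10.3 and 9.33 CPM in controls and 74.5 and 73.7 CPM with doxorubicin (2.92 ± 0.09). Tob1, of the same protein family, went from 299 and 269.6 to 1034 and 1079 CPM (1.89 ± 0.07). The treated libraries lay above the controls for each of them. Rprm, which encodes the G2 arrest protein reprimo, was near the lower end of detection in controls at 0.334 and 0.792 CPM and reached 10.6 and 10.01 CPM (4.12 ± 0.22, or 4.92 without control library B). Plk2, a polo-like kinase, rose by 1.04 ± 0.08 and Cdc42bpg, a kinase of the cytoskeleton, by 2.75 ± 0.19. The list was chosen with earlier results of these data known, so its direction is no independent support.

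Cell death genes rose at several levels of the pathway. Pmaip1, which encodes the BH3-only protein Noxa, was at 61.6 and 65.1 CPM in controls and 1158 and 1181 CPM with doxorubicin (4.21 ± 0.08). Bbc3, which encodes Puma, went from 0.743 and 0.646 to 1.72 and 2.097 CPM (1.46 ± 0.28), and the pore former Bax from 14.97 and 17.7 to 28.4 and 30.01 CPM (0.83 ± 0.10). Both treated libraries exceeded both controls for all 3. Bcl2l11, which encodes Bim, rose by 0.78 ± 0.11, while the death genes Bid (-0.80 ± 0.16) and Bok (-1.11 ± 0.15) fell. Among protectors, Bcl2 fell from 7.69 and 5.75 to 3.05 and 4.0995 CPM (-0.90 ± 0.18), and Bcl2l1, Mcl1 and Bcl2l2 rose by 0.63 ± 0.12, 0.30 ± 0.07 and 0.78 ± 0.09. Both sides of the BCL2 family thus held rising and falling members, 6 higher and 3 lower of 10 tested on the death side and 3 higher and 1 lower of 5 on the survival side.

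Of 28 death receptor and caspase genes 17 rose and 3 fell (median 0.85). Fas, the receptor for Fas ligand, was at 1.598 and 1.23 CPM in controls and 33.5 and 28.9 CPM with doxorubicin (4.48 ± 0.15). Tnfrsf10b, the mouse TRAIL receptor, went from 48.5 and 47.6 to 103 and 124 CPM (1.24 ± 0.08), and Tnfrsf26 rose by 2.44 ± 0.14. These receptor genes were higher in both treated libraries. Apaf1, the scaffold of the apoptosome, went from 62.2 and 53.8 to 196 and 213 CPM (1.82 ± 0.08). Perp, a membrane protein of desmosomes that p53 activates, went from 13.3 and 13.998 to 285 and 242 CPM (4.27 ± 0.10).

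The p53-linked repair genes split. Polk, a translesion DNA polymerase, was at 30.7 and 27.9 CPM in controls and 119 and 119 CPM with doxorubicin (2.02 ± 0.08). Ercc5, an endonuclease of nucleotide excision repair, went from 6.91 and 6.72 to 39.05 and 35.8 CPM (2.46 ± 0.10), and Rrm2b, the damage-inducible subunit of ribonucleotide reductase, from 63.9 and 55.5 to 161 and 158 CPM (1.42 ± 0.08). All 3 were higher in both treated libraries. Gadd45a rose by 1.48 ± 0.09 and the damage sensor gene Xpc by 0.90 ± 0.16. Polh, another translesion polymerase and a known p53 target, went the other way, from 5.72 and 5.3998 to 1.89 and 3.25 CPM (-1.103 ± 0.20). Ddb2, a partner of Xpc, had at most 2 counts in any WT library and was not tested. Over the list 7 of 20 rose and 5 fell.

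Metabolic and surface targets of p53 moved mostly upward, 13 higher and 3 lower of 20 in the first list (median 0.79) and 19 higher and 2 lower of 25 in the second (median 1.75). Lpin1, a phosphatidate phosphatase that also acts as a coactivator of fatty acid oxidation, was at 2.42 and 1.88 CPM in controls and 39.4 and 36.2 CPM with doxorubicin (4.15 ± 0.14). Aldh4a1, which breaks down proline, rose by 3.14 ± 0.21, Acad11, which oxidises fatty acids, by 2.93 ± 0.19, and Fdxr, ferredoxin reductase, by 2.599 ± 0.38. Sesn2, a stress sensor, had 3 and 5 counts in controls and 18 and 29 with doxorubicin. Gdf15, a secreted stress cytokine, had 3 and 2 counts and then 57 and 49, and the 2 groups lay apart. Cyfip2, a WAVE complex subunit, went from 0.669 and 1.12 to 19.5 and 12.8 CPM (4.13 ± 0.25), Zmat3, an RNA-binding protein, from 58.1 and 60.01 to 123 and 139 CPM (1.15 ± 0.08) and Ephx1, an epoxide hydrolase, from 6.69 and 7.102 to 26.9 and 23.4 CPM (1.86 ± 0.11). Kank3 had 3 and 6 counts and then 136 and 139. Dcxr rose by 3.93 ± 0.31, and Phlda3, at 3.94 and 3.02 then 4.37 and 3.91 CPM, was not called.

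While p53 targets rose, most genes of the damage kinases and their mediators fell, 19 of 28 tested, with 4 higher (median -0.48). Atm, the kinase activated by double-strand breaks, was at 57.7 and 49.6 CPM in controls and 31.7 and 33.6 CPM with doxorubicin (-0.71 ± 0.09). Chek1, the checkpoint kinase downstream of ATR, went from 20.7 and 20.4 to 9.44 and 11.2 CPM (-0.99 ± 0.11), and Wee1, which holds CDK1 inactive, from 198 and 199 to 67.4 and 68.8 CPM (-1.54 ± 0.07). Both treated libraries were below both controls for each of these kinases. Clspn, which brings ATR to Chek1, fell by 1.36 on the log2 scale (SE 0.11), and H2afx, the histone phosphorylated at breaks, changed by -1.82 ± 0.19. Brca1, the ubiquitin ligase of homologous repair, went from 8.29 and 10.2 to 4.04 and 4.0995 CPM (-1.19 ± 0.17). Chek2 went up, from 5.98 and 5.11 to 7.15 and 8.54 CPM (0.51 ± 0.14), but not without control library B (adjusted p = 0.0792) or doxorubicin library B (0.0722) in edgeR's test. In the end joining list 5 of 14 fell and 1 rose, with Parp1 at -0.83 ± 0.09 and Polq, the polymerase of microhomology joining, at -0.87 ± 0.14.

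The drug's own target responded unevenly. Top2a, the topoisomerase II of dividing cells, was at 119 and 117 CPM in controls and 56.5 and 62.6 CPM with doxorubicin (-0.99 ± 0.08). Top2b, its counterpart in resting cells, stood at 175 and 200.1 then 168 and 172 CPM and was not called (-0.14 ± 0.07), although it was called lower with upper-quartile scaling (-0.19) and without control library A (-0.24). Top1 was at 336 and 342 then 296 and 364 CPM, with the control values inside the treated range (-0.036 ± 0.08), and was called lower without doxorubicin library B (-0.196). Tdp2, which removes trapped topoisomerase II from DNA ends, was not called (0.14 ± 0.10), and Tdp1, which does so for topoisomerase I, was low throughout and fell (-1.83 ± 0.40, or -2.65 without doxorubicin library B). In the list of genes for efflux, uptake and reduction of the drug, 11 of 19 tested rose and 2 fell. Its efflux gene Abcg2 was called lower at -0.21, but not by DESeq2 or with the WT libraries alone. Abcb1b, a mouse gene for the efflux pump P-glycoprotein, was at 6.17 and 5.25 CPM in controls and 21.3 and 21.1 CPM with doxorubicin (1.899 ± 0.12), and its sister gene Abcb1a rose by 1.496 ± 0.36. Abcc5, another exporter, went from 13.4 and 10.2 to 34.1 and 31.4 CPM (1.48 ± 0.12), and Abcc1 was not called (0.028 ± 0.08). The reductases Akr1b8, Cbr3 and Nqo1 rose by 1.46 ± 0.15, 1.34 ± 0.30 and 0.61 ± 0.07, and Cbr1, the main carbonyl reductase for the drug, was not called (0.07 ± 0.21).

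Cyclins and CDKs fell more often than they rose, and their inhibitors differed by member. Of 28 cyclin and CDK genes 15 fell and 4 rose. Ccnb1, the mitotic cyclin, was at 126 and 129 CPM in controls and 61.04 and 49.5 CPM with doxorubicin (-1.21 ± 0.09), Cdk1, its partner, at 82.6 and 91.2 then 35.2 and 42.3 CPM (-1.17 ± 0.09) and Ccne1, the cyclin of S phase entry, at 3.53 and 3.404 then 1.16 and 0.782 CPM (-1.84 ± 0.26). Ccnd1, the growth factor responsive cyclin, instead rose from 127 and 125 to 184 and 184 CPM (0.55 ± 0.07). Treated and control libraries were apart for each of the 4. Among the inhibitors, Cdkn1b, which encodes p27, fell from 71.6 and 64.4 to 18.6 and 25.7 CPM (-1.61 ± 0.12) in the same libraries in which Cdkn1a rose, and Cdkn1c, which encodes p57, rose by 0.70 ± 0.11. Rb1, the retinoblastoma protein gene, went from 38.3 and 36.1 to 299 and 287 CPM (2.98 ± 0.07), and its relative Rbl2 rose by 1.86 ± 0.19. E2f8, a repressive E2F, fell from 24.1 and 22.8 to 4.67 and 4.82 CPM (-2.301 ± 0.13), E2f7 was not called (-0.067 ± 0.13), and Foxm1, the activator of mitotic genes, changed by -1.33 ± 0.14. Cdkn2a, which encodes p16 and p19ARF, had at most 4 counts in any WT library and was not tested.

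The machinery of chromosome segregation was mostly lower: 12 of 15 mitotic kinesins (median -1.07), 30 of 39 kinetochore and spindle checkpoint genes (-0.70) and 15 of 23 cohesin and condensin genes (-0.69), where 28.1% of all genes fell. Kif14, a motor of cell division, was at 39.3 and 40.2 CPM in controls and 9.54 and 10.3 CPM with doxorubicin (-2.01 ± 0.10). Kif11, the motor that separates spindle poles, went from 23.4 and 22.3 to 5.398 and 6.38 CPM (-1.95 ± 0.13). Cenpf and Nuf2, both of the kinetochore, fell from 19.1 and 19.9 to 4.902 and 4.54 CPM (-2.05 ± 0.12) and from 16.01 and 17.8 to 3.68 and 4.41 CPM (-2.06 ± 0.13). All 4 genes were lower in both treated libraries. Plk1, the main mitotic kinase, changed by -1.81 ± 0.24, and Ncapg2, a condensin subunit, -1.402 ± 0.07. A few members rose: Kif18b, which shortens microtubules, from 2.304 and 2.67 to 7.92 and 7.79 CPM (1.65 ± 0.16), and Pttg1, which encodes securin, from 8.69 and 9.92 to 28.4 and 26.5 CPM (1.55 ± 0.10).

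Most mitotic kinesin promoters held the CHR motif, TTTGAA or TTCGAA on either strand, the element bound by pocket protein and Foxm1 complexes at late cell cycle genes. It was in 12 of 13 mitotic kinesin windows and 17 of 30 kinetochore windows, against 13.7% of the windows of all tested genes and 19.2% of all RefSeq windows. It is shown in capitals for 5 mitotic kinesins, since 4 of them fell and 1 rose, and TTCAAA is TTTGAA read on the other strand.
Kif11 (chr19:37376343-37376388, + strand): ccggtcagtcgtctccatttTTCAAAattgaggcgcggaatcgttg
Kif14 (chr1:136467600-136467645, + strand): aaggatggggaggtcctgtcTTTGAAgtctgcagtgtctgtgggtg
Kif23 (chr9:61946772-61946817, - strand): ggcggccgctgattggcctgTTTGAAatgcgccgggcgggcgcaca
Kif4 (chrX:100626064-100626109, + strand): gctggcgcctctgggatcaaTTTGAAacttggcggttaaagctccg
Kif18b (chr11:102925096-102925141, - strand): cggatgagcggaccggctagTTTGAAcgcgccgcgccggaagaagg
Kif23, a motor of the midbody, fell from 58.7 and 66.97 to 40.04 and 39.02 CPM (-0.67 ± 0.08), and Kif4, a chromosome motor, from 7.39 and 7.25 to 3.08 and 2.44 CPM (-1.41 ± 0.16). Kif18b held the same 6 letters and rose, so the letters alone did not separate the direction.

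**Figure D2:**
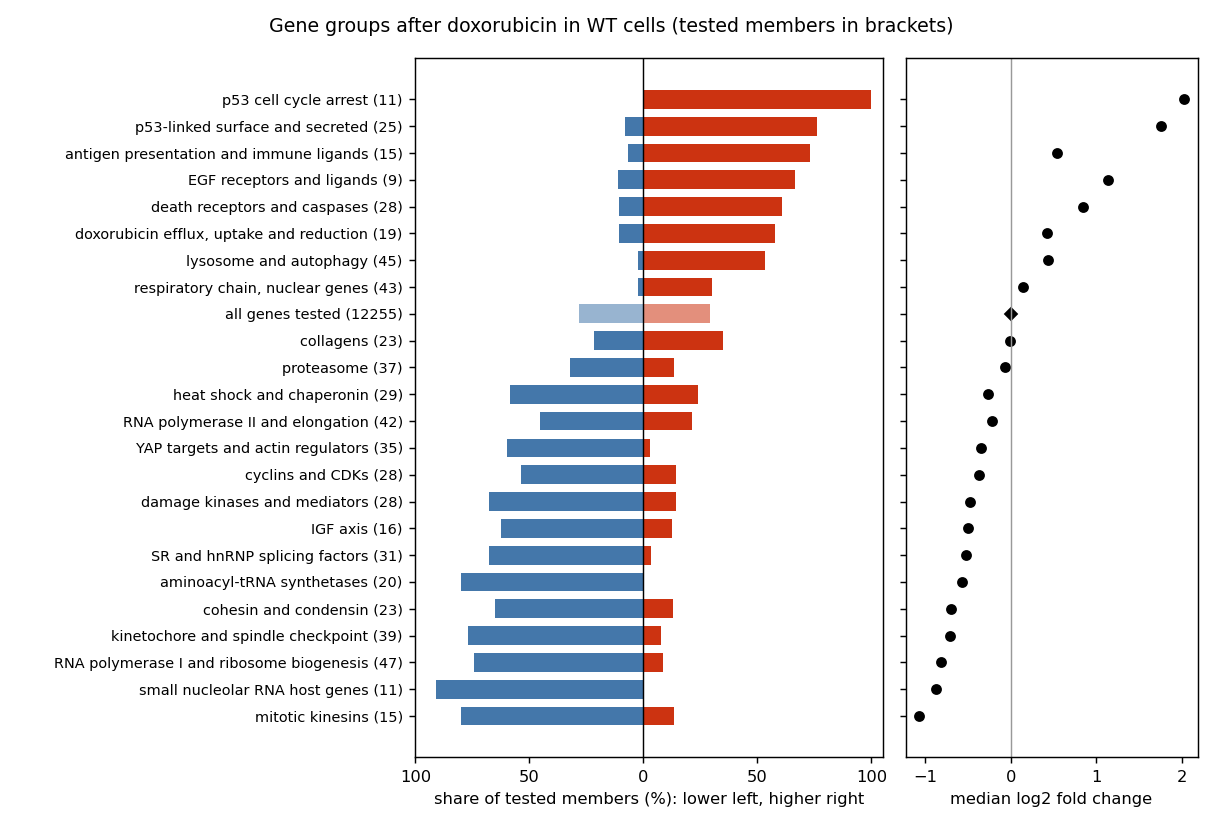
Left, the share of tested members called higher (right, red) or lower (left, blue) for 23 gene groups and for all genes tested (pale); right, the median log2 fold change, with the diamond for all genes. Mitotic kinesins and small nucleolar RNA host genes have medians of -1.07 and -0.87, the p53 arrest group 2.02.

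Genes of the nucleolus fell. Of 47 tested genes for RNA polymerase I and ribosome biogenesis 35 fell, 20 of them at least 2-fold, and 4 rose (median -0.82). Ncl, nucleolin, was at 312 and 302 CPM in controls and 134 and 159 CPM with doxorubicin (-1.07 ± 0.08). Nop56, a core protein of box C/D ribonucleoproteins, went from 8.62 and 8.804 to 2.45 and 2.19 CPM (-1.91 ± 0.16), and Dkc1, the pseudouridine synthase dyskerin, from 35.7 and 40.7 to 10.3 and 11.6 CPM (-1.81 ± 0.10). The treated libraries were lower for each. Npm1, nucleophosmin, changed by -0.77 ± 0.07 and Rrp1b, an rRNA processing factor, -1.94 ± 0.17. Fbl, the methyltransferase of the same complex as Nop56, had at most 7 counts in any WT library and was not tested.

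The genes that carry small nucleolar RNAs (snoRNAs) in their introns followed the same direction: 10 of 11 tested host genes fell and 0 rose (median -0.87). Snhg4 was at 109 and 91.5 CPM in controls and 14.2 and 15.4 CPM with doxorubicin (-2.75 ± 0.10), Snhg5 at 436 and 450.4 then 117 and 124 CPM (-1.88 ± 0.07) and Gas5 at 52.4 and 47.9 then 22.5 and 23.1 CPM (-1.14 ± 0.09). None of the 3 overlapped between groups. Of 29 tested genes that GENCODE classes as snoRNA, 16 fell and 0 rose (median -0.69). Reads of a snoRNA and of its host intron cannot be told apart in these counts, and the strand setting was not given in the sources used here. Myc, a driver of ribosome production, fell from 33.4 and 32.9 to 7.65 and 10.3 CPM (-1.88 ± 0.12), and its antagonist Mxd1 rose from 1.52 and 2.05 to 7.25 and 7.98 CPM (2.07 ± 0.18). Tfap4, a Myc target, went from 33.96 and 32.02 to 5.27 and 4.54 CPM (-2.75 ± 0.12), and Mnt, another antagonist, fell (-1.25 ± 0.19).

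Splicing factors and tRNA synthetases were lower as well. Of 31 genes for SR proteins, hnRNPs and their kinases 21 fell and 1 rose (median -0.53). Srsf1 was at 2033 and 1942 CPM in controls and 639.6 and 714 CPM with doxorubicin (-1.55 ± 0.07), Srsf2 at 3189.99 and 3104 then 1047 and 1091 CPM (-1.56 ± 0.06) and Srsf10 at 612 and 600.4 then 256 and 256 CPM (-1.24 ± 0.06). The treated libraries lay below the controls in these SR protein genes, which bind exons and recruit the spliceosome. The tRNA synthetases, which charge tRNAs with amino acids, had 16 of 20 lower and 0 higher (median -0.57). Tars went from 14.8 and 13.1 to 5.99 and 4.48 CPM (-1.41 ± 0.15) and Farsb from 19.2 and 25.9 to 10.3 and 8.79 CPM (-1.25 ± 0.13). The RNA polymerase II list moved less: 19 of 42 fell and 9 rose (median -0.21). Polr2a, the catalytic subunit, rose from 2.898 and 3.43 to 4.84 and 5.26 CPM (0.66 ± 0.16), as did the elongation factor Ell (1.05 ± 0.15), while Taf1, of the initiation factor TFIID, changed by -0.72 ± 0.10.

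**Figure D3:**
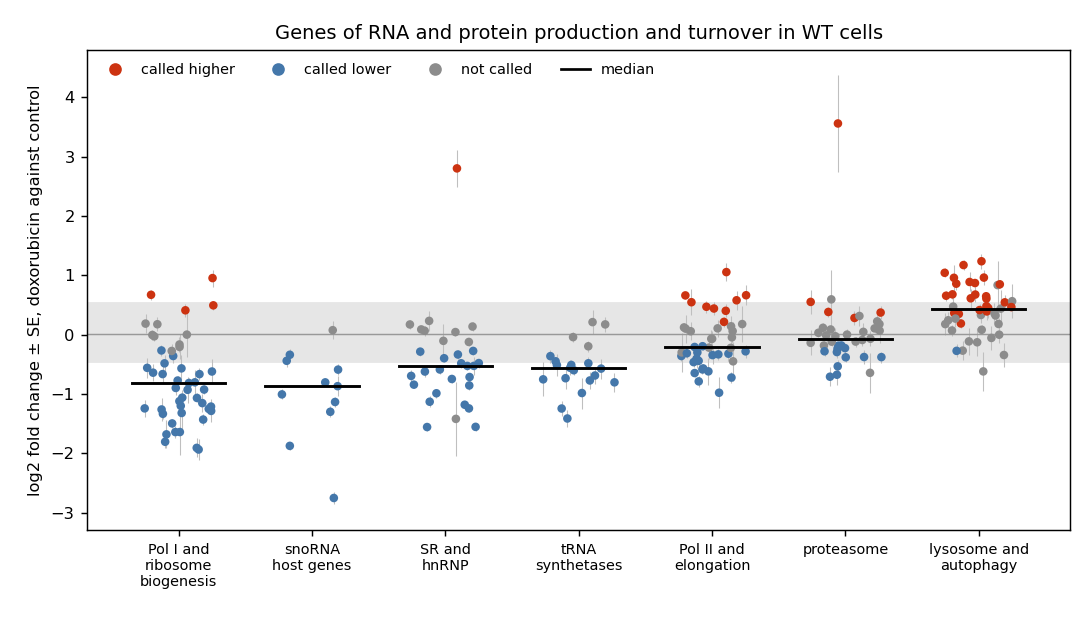
Log2 fold change ± SE of each tested gene in 7 groups, with called genes in red or blue, others in grey, black lines at the medians and the middle 50% of all tested genes in grey shade (horizontal positions within a group are arbitrary). The ribosome biogenesis, snoRNA host, splicing and tRNA synthetase groups have medians from -0.87 to -0.53, and the lysosome group 0.44.

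Of 45 lysosome and autophagy genes 24 rose and 1 fell (median 0.44). Ctsd, the protease cathepsin D, was at 19.3 and 21.2 CPM in controls and 47.6 and 43.9 CPM with doxorubicin (1.17 ± 0.09), and Wipi1, which marks forming autophagosomes, at 7.73 and 6.87 then 15.5 and 18.8 CPM (1.24 ± 0.13). Sqstm1, the cargo adaptor p62, rose by 0.66 ± 0.09 and Atg2b, a lipid transfer protein of autophagosomes, by 1.04 ± 0.08. Treated libraries were above controls for all of these. The proteasome list moved little, with 5 of 37 higher and 12 lower (median -0.069). Heat shock and chaperonin genes were split, 17 of 29 lower and 7 higher. Hspa8, the constitutive HSP70, fell from 61.2 and 66.4 to 28.9 and 30.9 CPM (-1.09 ± 0.09), while its relatives Hspa1a and Hspa2 rose by 2.44 ± 0.22 and 1.26 ± 0.07, and Hsph1, their exchange factor, changed by -0.69 ± 0.08.

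Energy metabolism showed a few large changes in lists whose medians lay between -0.17 and 0.14. Pdk4, the kinase that closes pyruvate dehydrogenase, was at 66.7 and 63.01 CPM in controls and 753 and 689 CPM with doxorubicin (3.48 ± 0.08), and Ldhb, lactate dehydrogenase B, at 0.706 and 0.939 then 9.24 and 6.63 CPM (3.24 ± 0.22). Hk2, the inducible hexokinase, fell from 11.7 and 10.6 to 2.25 and 3.13 CPM (-2.04 ± 0.15). Groups did not overlap in these 3, and over the glycolysis list 7 of 27 rose and 7 fell. Ppargc1a, the coactivator PGC-1 alpha, went from 0.409 and 0.117 to 4.37 and 3.44 CPM (3.96 ± 0.35, or 4.999 without control library A and 3.24 without control library B), and Esrra, its partner receptor, rose by 1.75 ± 0.20. Nrf1, nuclear respiratory factor 1, went down from 26.3 and 23.7 to 3.28 and 2.85 CPM (-3.03 ± 0.13). Over the list of mitochondrial biogenesis regulators, which holds these 3 genes, 4 of 16 rose and 6 fell. The nuclear respiratory chain genes had 13 of 43 higher and 1 lower, none past 2-fold (median 0.14), with Cox4i1 at 0.81 ± 0.08 and Cox8a at 0.84 ± 0.13. Gapdh had under 30 counts and Eno1 0 counts in each WT library, so levels of genes with near-identical copies are uncertain in this table.

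Of the 30 polycomb and DNA methylation genes 13 fell and 5 rose (median -0.32). Uhrf1, which guides maintenance of DNA methylation, was at 106 and 114 CPM in controls and 29.5 and 32.6 CPM with doxorubicin (-1.83 ± 0.08). Tet1, which oxidises methylated cytosine, went from 12.7 and 9.51 to 51.1 and 52.5 CPM (2.23 ± 0.13). Within the polycomb repressive complex that methylates histone H3, Ezh2, the methyltransferase, fell from 22.9 and 21.1 to 12.4 and 11.8 CPM (-0.86 ± 0.11), and Eed, its scaffold, rose from 22.7 and 23.1 to 59.1 and 54.5 CPM (1.31 ± 0.09). Each of the 4 differed between groups without overlap. Among deacetylases and acetyltransferases 7 of 24 rose and 6 fell, with Hdac9 at -1.08 ± 0.17, Hdac7 at -0.83 ± 0.16 and Hdac6 at 0.87 ± 0.17.

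Growth factor genes changed by family. In the EGF family 6 of 9 tested members rose and 1 fell (median 1.14). Ereg, epiregulin, was at 574 and 557 CPM in controls and 1366 and 1351 CPM with doxorubicin (1.26 ± 0.07), Areg, amphiregulin, at 0.817 and 0.734 then 4.93 and 4.26 CPM (2.57 ± 0.24) and their receptor Egfr at 34.9 and 31.4 then 73.3 and 72.6 CPM (1.14 ± 0.08). Egfr, Ereg and Areg were thus higher in the same treated libraries. Another ligand gene, Hbegf, was called lower at -0.17, but not by DESeq2 or with the WT libraries alone. The mesenchymal ligands Fgf7 and Fgf10 fell from 129.9 and 118 to 36.4 and 33.6 CPM (-1.82 ± 0.09) and from 65.8 and 51.2 to 14.7 and 19.3 CPM (-1.78 ± 0.12). Both PDGF receptors, which define many fibroblasts, fell: Pdgfra from 77.1 and 69.8 to 21.3 and 17.96 CPM (-1.903 ± 0.10) and Pdgfrb from 10.9 and 10.7 to 3.51 and 4.13 CPM (-1.49 ± 0.14). Pdgfa, a ligand of the alpha receptor, rose from 1.41 and 1.76 to 5.63 and 6.32 CPM (1.898 ± 0.19). Of 16 genes of the insulin-like growth factor axis 10 fell and 2 rose, with the receptor Igf1r at -0.85 ± 0.08, the binding protein Igfbp5 at -0.90 ± 0.09 and the RNA-binding proteins Igf2bp1 and Igf2bp3 at -1.35 ± 0.11 and -1.02 ± 0.10. Negative feedback genes of ERK signalling, which EGF and FGF receptors activate, were split, 7 of 18 higher and 5 lower: the phosphatase Dusp6 rose by 0.68 ± 0.07 and the inhibitors Spry2 and Spred1 changed by -0.53 ± 0.08 and -0.68 ± 0.09.

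Of 39 Wnt pathway genes 10 rose and 13 fell, shares close to those of all genes, and single members changed in both directions. Wnt9a was at 1.34 and 0.9098 CPM in controls and 29.9 and 27.01 CPM with doxorubicin (4.69 ± 0.17), while Wnt5a, the main Wnt of mesenchyme, went from 300.04 and 299.98 to 203 and 210.01 CPM (-0.54 ± 0.07). Among Wnt receptors Fzd10 had 1 count in each control library and 304 and 345 counts with doxorubicin, and Fzd2 fell from 19.1 and 19.3 to 3.38 and 3.82 CPM (-2.41 ± 0.12). Groups lay apart for these 4. The receptor genes Notch3 and Notch1 rose from 0.149 and 0.147 to 5.43 and 5.01 CPM (5.103 ± 0.31) and from 2.12 and 1.82 to 7.32 and 6.42 CPM (1.81 ± 0.18). The Notch target Hes1 changed by -0.26 ± 0.07, and the coactivator Maml2 -1.504 ± 0.11. In the TGF-beta and BMP list 18 of 39 rose and 10 fell. Bmp2 went from 1.23 and 0.968 to 6.82 and 5.63 CPM (2.51 ± 0.21) and Inhbb, an activin subunit, from 35.9 and 38.3 to 108 and 97.1 CPM (1.47 ± 0.08), while the BMP antagonist Grem1 fell from 14.5 and 14.2 to 4.405 and 3.94 CPM (-1.78 ± 0.16). Gli3, a transcription factor of the hedgehog pathway, fell by 1.19 on the log2 scale (SE 0.07).

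Genes of the actin cytoskeleton and of YAP signalling fell in 21 of 35 cases, with 1 higher (median -0.34). Ctgf, a secreted YAP target, was at 3807 and 4214 CPM in controls and 1283 and 1354 CPM with doxorubicin (-1.605 ± 0.08), and Ankrd1, another YAP target, at 114 and 115 then 21.7 and 26.6 CPM (-2.24 ± 0.10). Srf, the serum response factor, went from 6.32 and 6.897 to 3.54 and 3.098 CPM (-0.996 ± 0.15). The 3 genes were lower in both treated libraries, as was Actb (-0.57 ± 0.07), a gene often used as a constant reference. Of the type I collagen genes, Col1a2 was at 1853 and 1953 then 1958 and 1810.4 CPM, with overlapping groups (-0.014 ± 0.07), and Col1a1 was not called (-0.12 ± 0.07) except with upper-quartile scaling (-0.17). Over all 23 collagen genes 8 rose and 5 fell, and Col27a1 rose from 14.6 and 14.6 to 65.97 and 53.01 CPM (2.02 ± 0.10).

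Proteases and adhesion genes changed individually. Plau, the urokinase plasminogen activator, rose from 11.2 and 8.72 to 53.6 and 51.9 CPM (2.41 ± 0.12), and Serpine2, an inhibitor of urokinase and thrombin, from 46.3 and 50.5 to 254 and 225 CPM (2.31 ± 0.08). Adamts5, the aggrecanase, fell from 167 and 144 to 41.8 and 40.6 CPM (-1.91 ± 0.08). In the metalloproteinase list 10 of 32 rose and 10 fell. Itga5, the alpha chain of the fibronectin receptor, fell from 8.73 and 8.95 to 2.32 and 3.19 CPM (-1.68 ± 0.18), and Itga6, a laminin receptor chain, rose from 23.6 and 24.8 to 58.9 and 64.03 CPM (1.34 ± 0.08). The gap junction genes split without overlap: Gjb2, connexin 26, went from 277 and 315 to 25.8 and 29.9 CPM (-3.41 ± 0.10), while Gja3 rose from 8.69 and 11.1 to 45.3 and 43.03 CPM (2.15 ± 0.11) and Gja1, connexin 43, by 0.36 ± 0.06. Panx1, a membrane channel that releases ATP, rose from 4.79 and 4.28 to 18.3 and 15.96 CPM (1.92 ± 0.13).

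Immune surface genes rose: 11 of 15 tested genes for antigen presentation and immune ligands were higher and 1 was lower (median 0.54). Icam1, the ligand of leukocyte integrins, was at 0.483 and 0.587 CPM in controls and 23.4 and 17.5 CPM with doxorubicin (5.23 ± 0.21). Nlrc5, the transactivator of MHC class I, went from 0.186 and 0.4696 to 11.9 and 9.17 CPM (4.92 ± 0.26, or 5.79 without control library B), Tap1, the peptide transporter, from 0.297 and 0.528 to 6.36 and 6.45 CPM (3.900 ± 0.24) and B2m, the class I light chain, from 983 and 934 to 1371 and 1345 CPM (0.50 ± 0.07). Treated libraries were higher in each. Cd274, which encodes the checkpoint ligand PD-L1, rose by 1.85 ± 0.31. Of the 15 macrophage and leukocyte markers, 10 were tested and 5 of these rose, with a summed level of 26.8 and 24.8 CPM in controls and 38.4 and 35.96 CPM with doxorubicin, and Cd79a had no count. The part of such cells in these rises was not tested.

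Secreted signals of the immune system were mixed, 6 of 17 higher and 7 lower. Lif, a cytokine of the interleukin 6 family, was at 1.37 and 1.497 CPM in controls and 12.3 and 13.6 CPM with doxorubicin (3.16 ± 0.18), and Il15 at 0.632 and 0.4402 then 5.498 and 4.13 CPM (3.18 ± 0.26). Cxcl16 rose by 1.97 ± 0.16, and Cxcl12, the chemokine that retains stem cells, fell from 137 and 129.5 to 57.6 and 63.2 CPM (-1.14 ± 0.07). Ptges, the inducible prostaglandin E synthase, went from 5.46 and 5.899 to 60.1 and 53.3 CPM (3.31 ± 0.13), whereas Ptgs2, the cyclooxygenase that feeds it, was at 2441 and 2097 then 2382 and 2404 CPM with overlapping groups (0.077 ± 0.08). Ptgs1 fell (-0.86 ± 0.14). Of these 3 enzymes only Ptges rose. Over the whole prostaglandin synthesis list 3 of 13 tested genes rose and 3 fell (23.1% each), with log2 fold changes from -1.68 to 5.10.

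Early transcription factors also differed by member. Fos was at 9.73 and 8.83 CPM in controls and 61.4 and 63.4 CPM with doxorubicin (2.75 ± 0.11), and Jun, its partner in AP-1, fell from 374 and 342 to 246 and 258 CPM (-0.51 ± 0.07). Fosb rose by 1.403 ± 0.16, and over the AP-1 family 6 of 13 rose and 2 fell. Egr1 went from 228 and 233 to 552 and 610.1 CPM (1.34 ± 0.07) and Klf10, a TGF-beta response gene, from 697 and 699 to 1452 and 1487 CPM (1.07 ± 0.06), while Klf6 fell from 206 and 204 to 105.4 and 113 CPM (-0.91 ± 0.07). Of the circadian clock genes, 13 of 19 were not called. Tef, a clock output factor, rose from 4.83 and 5.66 to 18.4 and 16.7 CPM (1.73 ± 0.13) and Arntl, which encodes BMAL1, from 21.4 and 23.6 to 45.04 and 45.1 CPM (0.999 ± 0.09). Clock, the partner of BMAL1, changed by -0.61 ± 0.09.

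The response differed by gene size at its extremes. Of 11416 protein-coding genes matched by name to the GENCODE annotation of GRCm38, the 658 that span more than 200 kb had 20.5% higher and 41.0% lower, with a median log2 fold change of -0.28. Those from 100 to 200 kb had 31.7% higher and 31.4% lower (median -0.018), and those of at most 5 kb 30.6% and 22.8% (0.044). Across all bins up to 200 kb the medians lay between -0.018 and 0.046, and the shift stood in the longest bin. With genes of a mean of at least 5 CPM only, the bin over 200 kb had 25.5% higher and 55.3% lower of 322 genes (median -0.34). More genes were called at these levels in both directions. The bins up to 200 kb then had 31.6% to 36.2% higher and 30.1% to 39.7% lower, the shares to read it against. Transcripts of at most 1 kb had 28.6% higher and 11.7% lower (median 0.14), and those over 6 kb 27.3% and 38.1% (-0.11). Spearman's rho of gene span and log2 fold change was -0.055 across genes, which share the same 4 libraries and are not independent. Genes whose longest transcript had 1 exon, 272 in number, had 39.7% higher and 25% lower.

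**Figure D4:**
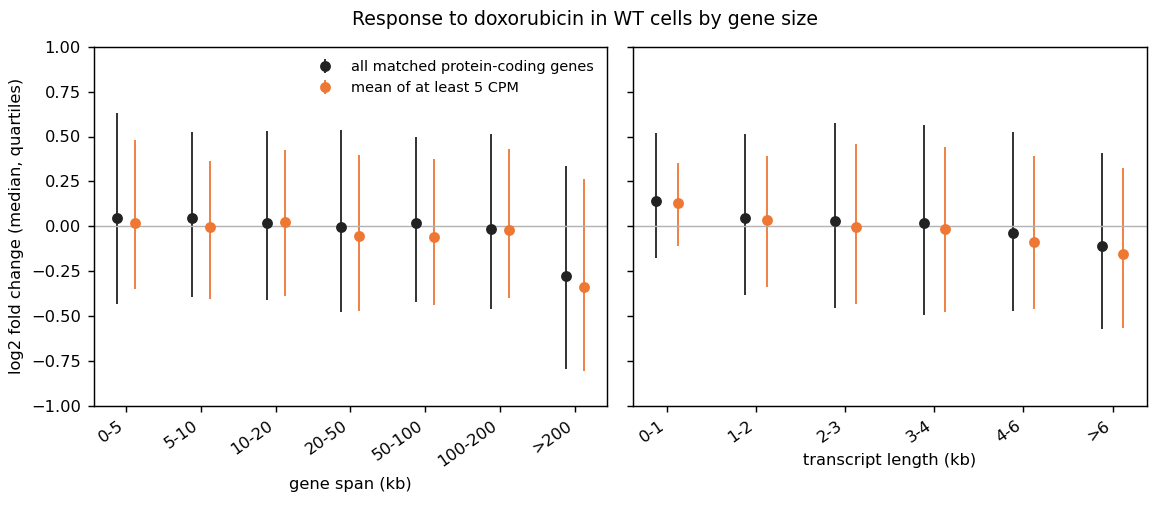
Median log2 fold change of protein-coding genes by gene span (left) and longest transcript (right) in kb, with lines from the lower to the upper quartile; black is all matched genes, orange those with a mean of at least 5 CPM. The bin over 200 kb has a median of -0.28, below those of the shorter bins.

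Promoter letters differed between rising and falling genes for several motifs, each searched on both strands of the 300-base windows of the 7564 tested genes with 1 window. The E2F letters TTCCCGC or TTGGCGC were in 17.4% of windows of genes called lower, 11% of those called higher and 13.1% of all tested genes (6.81% of all RefSeq windows). The AP-1 letters TGACTCA or TGAGTCA were in 6.34% of genes that rose at least 4-fold, 2.45% of genes called lower and 3.31% of all tested (5.20% of all windows). CHR was in 18.6% of genes that fell at least 2-fold and 12.6% of those called higher. The E-box CACGTG, a Myc motif, was in 13.1% of genes that fell at least 2-fold and 5.85% of those that rose at least 4-fold, against 10.3% of all tested (7.15% of all windows). The NRF1 motif was in 12.9% of genes called lower, 9.62% of those called higher and 4.63% of those that rose at least 4-fold, but also in 9.41% of those that fell at least 2-fold, against 11.3% of all tested (4.6% of all windows). Median GC content was 60.5% for rises of at least 4-fold, 61.7% for all called higher, 61.0% for falls of at least 2-fold and 62.3% for all called lower. The median number of CG pairs per window was 17, 21, 21 and 24 in these classes and 22 over all tested genes. The E2F, E-box and NRF1 letters all hold CG, and the part of CG content in their shares was not tested. The letters CCAAT were in 39.5% of genes called higher and 40.5% of those called lower (37.4% of all windows). No test was made on these shares, and they do not show that a factor was bound.

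**Figure D5:**
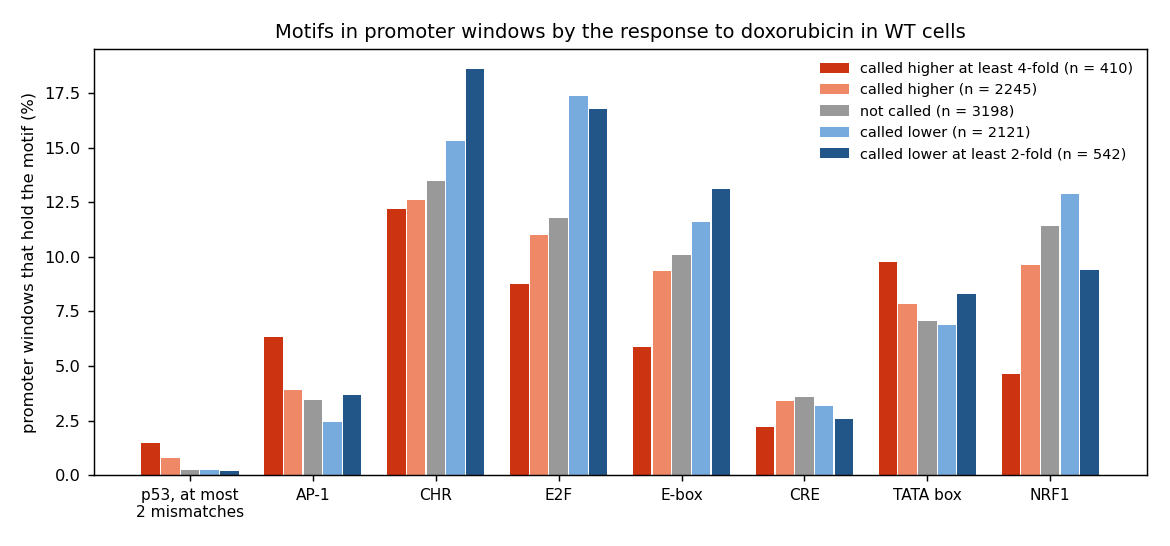
Share of promoter windows (%) that hold each motif, by class of the response in WT cells, with the number of genes per class in the legend; the bars start at 0. CHR and E2F motifs are more frequent in genes called lower (15.3% and 17.4%) than higher (12.6% and 11%), and AP-1 and p53 motifs in those that rose at least 4-fold (6.34% and 1.46%). The p53 bars show the unplanned search at up to 2 mismatches.

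The doxorubicin libraries differed from each other more than the controls did. Over genes of at least 20 CPM, 11 of 3743 differed more than 1.5-fold between doxorubicin libraries A and B, and 2 of 3655 between control libraries A and B. Hmox1, the heme oxygenase, was at 17.4 and 19.6 CPM in controls and at 16.2 and 61.8 CPM in doxorubicin libraries A and B, so the groups overlapped (1.08 ± 0.35), and without doxorubicin library B its change was -0.19. Its call was also lost without either control library, by DESeq2 and by limma-voom. Ahnak, a scaffold protein, was at 4224 and 4139 then 2664 and 4855 CPM and was not called (-0.15 ± 0.15), but without doxorubicin library A it was called higher at 0.22 and without library B lower at -0.65. Heatr3, a nuclear import factor for ribosomal proteins, was at 234 and 181 then 38.7 and 92.8 CPM and fell (-1.65 ± 0.22, or -2.42 without doxorubicin library B), and Cxcl5 was at 87.2 and 57.5 then 35.3 and 20.1 CPM (-1.38 ± 0.19). In each of them the size of the response depended on which treated library was read.

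In mutant cells the same genes mostly moved the same way, and 98.6% of the genes called in WT had the same sign there. The difference between the 2 responses was called for 9 of 12255 genes, 0.0734%, in edgeR's quasi-likelihood test, by limma-voom for 4 and without a count filter for 48. The count was 0 without control library B, 3 without control library A and 51 without doxorubicin library B. Of the genes described above only Pttg1 was among them. It rose in WT from 8.69 and 9.92 to 28.4 and 26.5 CPM and in mutant cells from 18.01 and 18.9 to 30.5 and 31.3 CPM, a log2 response of 0.75 ± 0.10 and a difference of -0.81 ± 0.14. Without control library A or B the difference was not called (adjusted p = 0.232 and 0.0783 in edgeR's test).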

How the data were processed

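Whole-number counts per gene for all 8 libraries were deposited by the authors as 1 table, and the build mm9, Bowtie2 and HTSeq are named per the submitters' processing notes. Per the labels' protocols, libraries used the TruSeq RNA Access kit from 50 ng of total RNA, and 3' RNA sequencing is also named; which reads were counted is not given in the sources used here. Genes with at least 10 counts in enough libraries and 15 in total were kept and fitted with edgeR 4.0.16 (TMM scaling, quasi-likelihood test, 4 groups, all 8 libraries, Benjamini-Hochberg adjustment) in R 4.3.3. DESeq2 1.42.0, limma 3.58.1, other scalings, filters, a 1.5-fold test and left-out libraries were alternatives, and the fit was tested on simulated data.

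The members and gene lists were chosen with earlier results of these data known. Named genes were key list members, up to 3 further called members per list of at least 2 CPM and the 12 largest changes per direction of at least 20 CPM. The further members and the largest changes were taken only from genes whose WT groups did not overlap. The 6 genes that differed most between doxorubicin libraries were also named. Trp53, marker genes, the genes near silent in controls and those with printed promoters were named outside that rule, after their values were seen. Promoters came from RefSeq on GRCm38.p6 and gene spans from GENCODE, matched by name to 96.1% of tested genes, and no mm9 coordinates were used. Some named genes are not reported here.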

Additional observations from a re-analysis of the deposited data

Results flagged for a closer look

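The response of Esco2, an acetyltransferase of cohesin, differed between the genotypes by 0.68 on the log2 scale (mutant minus WT, adjusted p = 0.0425 in edgeR's quasi-likelihood test of the difference, n = 2 libraries per group). With a WT library left out, the adjusted p in that test ran from 0.0039 to 0.314, and it was 0.0705 in limma-voom. The response of Pttg1 differed by -0.81 (adjusted p = 0.0282 in edgeR's test), with adjusted p from 0.0081 to 0.232 when a WT library was left out.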

How the results depend on the processing

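Of the 3589 rises and 3448 falls, size factors, limma-voom, no filter, WT libraries alone, upper-quartile scaling, a 5 CPM filter and DESeq2 gave counts within 1.5 times, with DESeq2 at 3059 and 2896. A test against a 1.5-fold change gave 1718 and 1148. Without 1 WT library, rises ran from 3066 to 3336 and falls from 2927 to 3168. Upper-quartile scaling moved the median of all genes by -0.051. The 9 genes whose response differed between genotypes became 4 with limma-voom, 13 with DESeq2, 48 with no count filter, 5 with the 5 CPM filter, 0 with the test against a 1.5-fold change and 14 with the library letter as a replicate block, and ran from 0 to 51 without 1 WT library; the cause was not tested. The replicate block gave 3604 rises and 3485 falls and changed the call of none of the 337 named genes. DESeq2 lost the call of 13 of them and the test against a 1.5-fold change that of 86. Leaving out any 1 WT library also lost calls among them. Nothing in the labels ties libraries of the same letter. Across 6517 genes their deviations correlated at -0.109 between WT control and WT doxorubicin and at 0.090 to 0.235 in the other 5 pairs of groups, so not every pair was over 0.1 and the letters were not taken as pairs. With the doxorubicin letters crossed, chosen after seeing the data, the counts were 3608 and 3460 and 6 for the difference. Hmox1 was at -0.19 without doxorubicin library B and 1.74 without library A, and Ahnak at 0.22 without doxorubicin library A and -0.65 without library B. With 2 libraries per group, small changes of genes with few counts were not detectable.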
